A study of Mus musculus with 22 samples.

Results

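Macrophages grown from mouse bone marrow and left without lipopolysaccharide (LPS) are described here, in 12 of the 22 arrays of the series. Their members were chosen by label, as the 6 Ctrl and 6 HMB arrays, and were compared by replicate number, with numbers 5 and 6 (4 arrays) against numbers 1 to 4 (8 arrays). All 12 held bone marrow-derived macrophages (BMDM) of C57/bl6 mice, differentiated with medium conditioned by L929 cells, with no gene altered and no LPS. Ctrl cells had no further treatment. HMB cells received 1 mM β-hydroxy-β-methylbutyrate, a metabolite of leucine, for 48 h. The remaining 10 arrays held cells given LPS at 10 ng/ml for 48 h, alone (LPS, 5 arrays) or with HMB (HMB+LPS, 5 arrays). The labels do not give the age or sex of the mice, and do not say whether replicate numbers stand for separate animals, cultures or days, so the p-values below describe the spread among these arrays, which may be technical. The split by replicate number was noticed in these same data. The tests below therefore describe its size and its genes, and are no independent evidence that it exists.

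L929 cells secrete macrophage colony-stimulating factor, which drives marrow progenitors to become macrophages and keeps them dividing and alive. Cultures of such cells, called M0 before any polarizing signal, can differ in how many cells are in the cell cycle, in their sterol and antioxidant metabolism, in the receptors on their surface and in how much chemokine they release at rest. M1-like cells are the inflammatory form that LPS induces, and M2-like cells the form linked to repair.

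The arrays measured 22206 probe sets on a log2 scale, and 1 log2 unit is a doubling. Medians of these probe sets ran from 5.82 to 5.98 and lower quartiles from 3.56 to 3.84 on the 12 arrays, while the negative control probe sets averaged 6.04 to 7.28. A level in that range or below it may hold little signal, and a difference from it is no bound on the change. Positive minus negative control probe sets, a measure of signal over background, averaged 4.89 ± 0.182 log2 units in numbers 5 and 6 (SD, n = 4) and 4.56 ± 0.494 in numbers 1 to 4 (SD, n = 8), a difference of 0.33 (exact two-sided permutation test, p = 0.226, where 0.00404 is the smallest p possible). Ctrl 1 and HMB 1 had the lowest separations, 3.96 and 3.78. Replicate number 1 also stood apart in expression, as given below.

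Numbers 5 and 6 lay apart from the other arrays and close to each other, and number 1 also lay apart. The first principal component held 43.8% of the variance. On it, Ctrl 5 lay at 71.6, Ctrl 6 at 74.1, HMB 5 at 70.3 and HMB 6 at 70.1. Numbers 1 to 4 spread from -100.6 in HMB 1 to 5.2 in Ctrl 4, and HMB 4 lay at -2.9, so the arrays of number 4 were the nearest to numbers 5 and 6 and those of number 1 the farthest. The closest pairs among the 12 arrays were HMB 5 with HMB 6 (median absolute difference 0.246 log2 units) and Ctrl 5 with Ctrl 6 (0.256), followed by Ctrl 4 with HMB 4 (0.308). The arrays of number 4 differed less from each array of numbers 5 and 6 (0.439 for the closest pair) than from those of number 1 (0.490 to 0.624). After the Ctrl and HMB means of each state were taken out, the median SD of a probe set was 0.23 over numbers 5 and 6 and 0.45 over numbers 1 to 4.

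**Figure D1:**
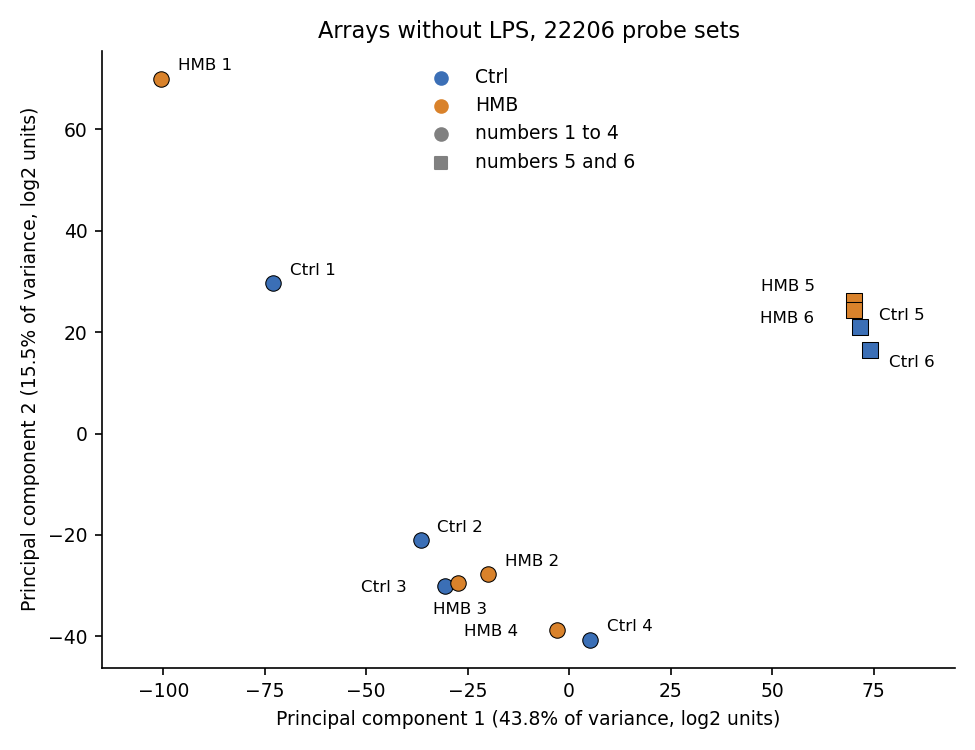
Position of the 12 arrays without LPS on the first 2 principal components of all tested probe sets (log2 units, axes labelled with the share of variance). Colours mark Ctrl and HMB, circles numbers 1 to 4 and squares numbers 5 and 6. The 4 squares sit together between 70.1 and 74.1 on the first component, apart from the 8 circles, which end at 5.2.

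The state difference, numbers 5 and 6 minus numbers 1 to 4 with HMB as a term, passed an adjusted p of 0.05 (limma, Benjamini-Hochberg over all probe sets) for 4271 probe sets. Of all probe sets, 11.3% were higher in numbers 5 and 6 (2505) and 7.95% were lower (1766). These shares are the background for the gene groups below, and they include many dim probe sets. Among the 5675 probe sets kept by a filter on dim ones, fitted alone, 2751 passed, a larger share than over all. A list of well-expressed genes can therefore exceed the background without standing out from other such genes. Where the Ctrl and HMB arrays of a number were averaged first, leaving 2 numbers against 4, 2291 remained past the threshold, 6.31% of all probe sets higher (1401) and 4.01% lower (890), and 2269 of them were shared with the test over arrays in the same direction. With numbers 5 and 6 averaged to a single sample, because their arrays were the closest pairs, 58 passed. Leaving out both arrays of number 5 gave 1573, and both of number 6 gave 1559.

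The differences were large for many genes. The median size of a called difference was 1.14 log2 units, 603 called probe sets differed by at least 2 (429 higher, 174 lower) and 32 by at least 4. In 10.1% of all probe sets every array of numbers 5 and 6 lay above every array of numbers 1 to 4 (2244), and in 6.08% every one lay below (1351). The gap between the groups was wider than 2 log2 units for 30 probe sets above and 24 below.

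Treml4, a member of the TREM receptor family of myeloid cells, had the largest fitted difference. Its level ran from 2.09 to 3.58 in numbers 1 to 4, with a median of 3.07, and was 9.03, 8.94, 9.63 and 9.17 in Ctrl 5, Ctrl 6, HMB 5 and HMB 6. The difference was 6.3 ± 0.27 log2 units (SE; limma, adjusted p = 5.58e-08). Because the low levels lie below the negative controls, this size is no bound and no fold is given. All arrays of numbers 1 to 4 were low and none overlapped with numbers 5 and 6, and 7 of those 8 levels lay below the lower quartile of their own array. Trem1, an amplifier of myeloid inflammation, was higher by 4.23 ± 0.41 (adjusted p = 2.3e-05) and Trem3 by 1.82 ± 0.29 (adjusted p = 0.000732). Trem2 was at 15.39 to 16.27 on all 12 arrays, with a difference of -0.28 ± 0.18 that did not pass (adjusted p = 0.314).

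Id1, an inhibitor of basic helix-loop-helix factors and a classic target of bone morphogenetic protein (BMP) signals, ran from 6.46 to 8.33 in numbers 1 to 4 (median 7.46). It stood at 12.98 in Ctrl 5, 12.74 in Ctrl 6, 13.46 in HMB 5 and 13.56 in HMB 6, a difference of 5.73 ± 0.29 (adjusted p = 1.65e-07). Its gap to the nearest array of numbers 1 to 4 was 4.40 log2 units. Bmpr1a, a type I receptor for BMP ligands, went the opposite way. Its levels were 8.92 to 9.49 in numbers 1 to 4 (median 9.02), against 4.98, 5.18, 4.69 and 4.33 in Ctrl 5, Ctrl 6, HMB 5 and HMB 6, a difference of -4.34 ± 0.20 (adjusted p = 5.97e-08). The 8 high arrays differed among themselves by less than 1 log2 unit.

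Of the 22 BMP and SMAD genes measured, 2 were higher and 3 lower. Smad6, an inhibitor of BMP signalling, was higher by 1.90 ± 0.31, the receptor Bmpr2 was lower by 1.19 (adjusted p = 0.0011) and the BMP antagonist Grem1 was lower by 2.39 (adjusted p = 0.00151). The other 17 did not pass, among them Id3 (0.53), Id2 (-0.77) and Smad7 (0.35). The median of the list was -0.03.

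Lrmda, a leucine-rich repeat gene, had the largest fitted difference downwards, with 9.47 to 10.84 in numbers 1 to 4 (median 10.26) and 5.52, 5.37, 5.55 and 4.71 in Ctrl 5, Ctrl 6, HMB 5 and HMB 6 (-4.92 ± 0.27, adjusted p = 2.4e-07). Its levels in numbers 5 and 6, like those of Bmpr1a, lay below the mean of the negative controls, so the sizes of both differences are no bounds. Ifitm6, of the interferon-induced transmembrane family, was at 12.49 to 13.64 (median 13.19) against 8.67, 9.04, 8.56 and 8.38 (-4.53 ± 0.24, adjusted p = 1.88e-07). The states did not overlap in either gene. The array cannot separate near-identical copies within a gene family such as this one, nor within the kallikrein family, whose member Klk1b11 was lower by 3.97 (adjusted p = 0.00013).

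A second pattern was graded. Mcm5, a subunit of the replicative helicase, was at 6.44 and 5.56 in Ctrl 1 and HMB 1, at 10.15 and 9.97 in Ctrl 4 and HMB 4, and at 12.94, 13.01, 13.10 and 12.97 in Ctrl 5, Ctrl 6, HMB 5 and HMB 6. The difference was 4.83 ± 0.70 (adjusted p = 0.000334). Numbers 5 and 6 agreed within 0.07 log2 units (SD), whereas numbers 1 to 4 had an SD of 1.57. Ccl2, the main chemokine that recruits monocytes, was at 6.08 and 5.75 in number 1, 9.42 and 9.05 in number 4, and 12.06 to 12.38 in numbers 5 and 6 (4.62 ± 0.58, adjusted p = 0.000131). Cx3cr1, the fractalkine receptor of monocytes and tissue macrophages, was at 5.26 and 6.0 in number 1, 9.92 and 9.71 in number 4, and 11.74 to 12.32 in numbers 5 and 6 (4.04 ± 0.73, adjusted p = 0.00153). In these genes number 1 was lowest, number 4 nearest to numbers 5 and 6, and no arrays of the states overlapped.

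Over the 2505 probe sets called higher, with 0 set at the mean of numbers 1 to 4 and 1 at the mean of numbers 5 and 6, the median position was -0.31 for number 1, 0.06 for number 2, 0.02 for number 3 and 0.25 for number 4. Over those called lower it was -0.17, -0.02, 0.00 and 0.17. Numbers 5 and 6 lay at 0.99 to 1.01 in both sets. Against number 4 alone, 2578 probe sets passed. These positions use the same values that made the calls and are descriptions.

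**Figure D2:**
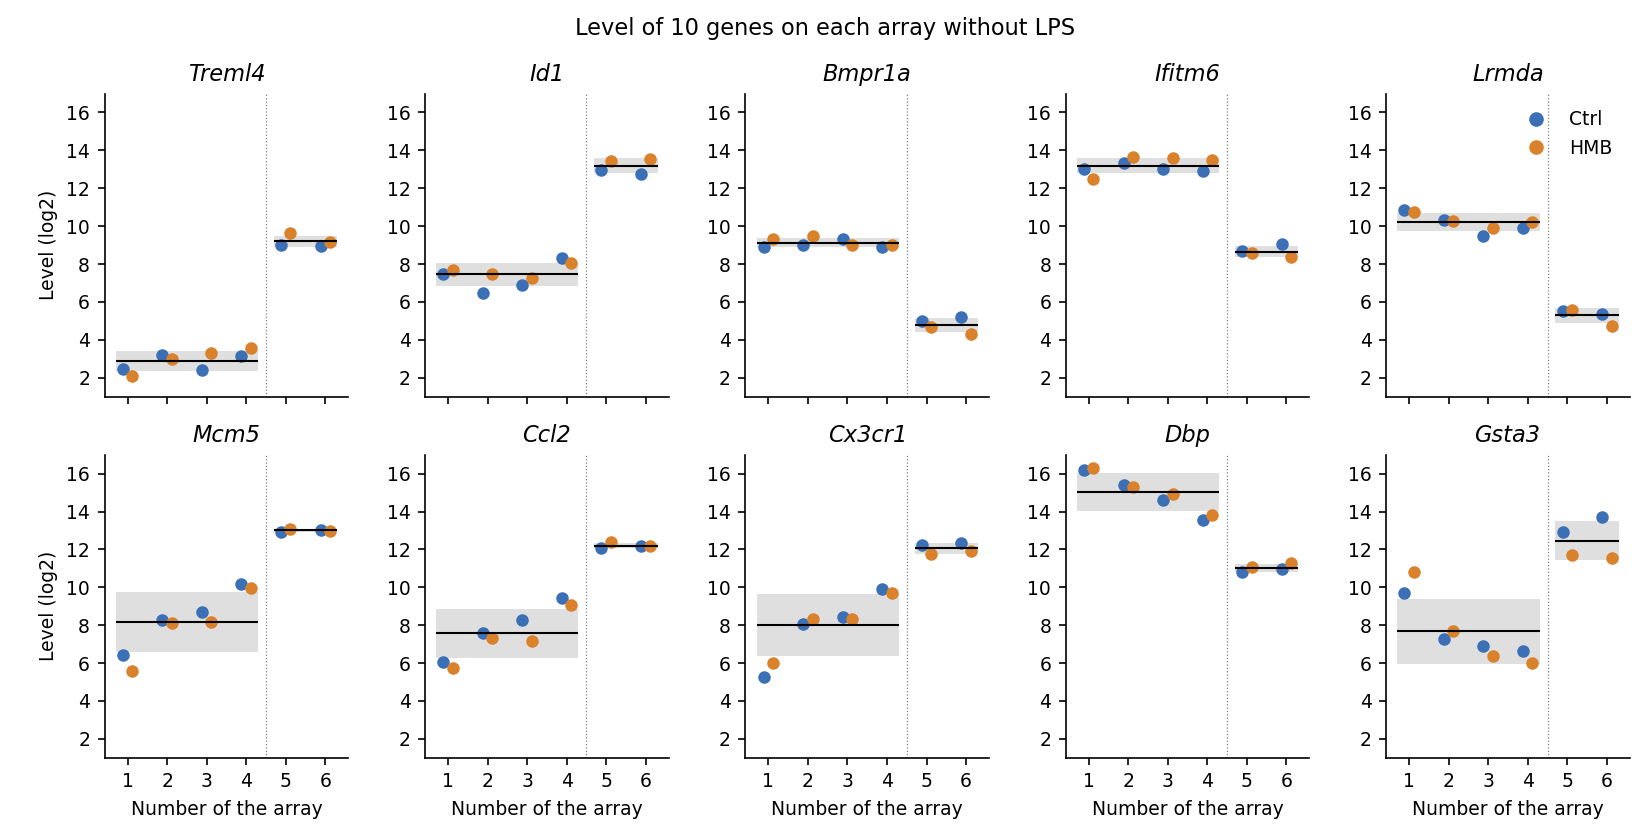
Level (log2) of 10 genes by replicate number, with a point per array (Ctrl and HMB in colour), a line at the mean and a grey band of 1 SD for numbers 1 to 4 (n = 8) and for numbers 5 and 6 (n = 4). The states did not overlap in Treml4, Id1, Bmpr1a, Ifitm6 and Lrmda, while Mcm5, Ccl2 and Cx3cr1 ran from 5.26 to 10.15 within numbers 1 to 4.

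Genes of the cell cycle had the highest shares called among the 45 lists compared. Of 43 measured DNA replication genes, 42 (97.7%) were higher in numbers 5 and 6 and none was lower, with a median difference of 2.19 log2 units against -0.04 over all probe sets, and 41 did not overlap between the states. Pold1, a DNA polymerase subunit, had a difference of 0.91 and did not pass. Of 39 mitosis genes, 38 (97.4%) were higher, with a median of 2.40, and the remaining one, Cenpa, a centromere histone, had a difference of -0.20. With the arrays of each number averaged, 35 of 43 and 35 of 39 passed.

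By role, the origin and helicase genes Mcm2 (3.97), Mcm3 (3.63), Cdc45 (3.28 ± 0.36) and Orc1 (2.24) were higher, as were the nucleotide suppliers Rrm2 (3.87) and Tyms (3.37). Ccne1, the cyclin that starts S phase, was higher by 2.93 ± 0.26 (adjusted p = 1.1e-05), and Lig1, which joins Okazaki fragments, by 2.19 ± 0.23 (adjusted p = 3.78e-05). Pcna, the sliding clamp, was high everywhere and differed by 0.76. Of the mitotic genes, Tacc3 and Prc1, which organise spindle microtubules, were higher by 2.86 ± 0.27 and 2.78 ± 0.32 (adjusted p = 1.73e-05 and 7.82e-05), Ccna2 by 3.59 and Plk1 by 2.97. Mki67, the common marker of dividing cells, was at 12.17 and 12.14 in number 1, 14.56 and 14.08 in number 4, and 15.03 to 15.56 in numbers 5 and 6 (2.16 ± 0.40, adjusted p = 0.00177). Mybl2, a transcription factor of the cell cycle, was higher by 4.68 ± 0.45 (adjusted p = 2.06e-05). In bulk RNA a larger share of dividing cells and more transcript per cell cannot be told apart.

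The mean level of the DNA replication list was 7.82 and 7.58 in number 1, 9.23 and 9.10 in number 4, and 10.52 to 10.83 in numbers 5 and 6, and that of the mitosis list was 8.81 and 8.67, 10.60 and 10.45, and 12 to 12.11. Every array of numbers 1 to 4 thus lay below numbers 5 and 6, with number 4 between. Inhibitors of the cycle were looked at after the values were seen. Cdkn1b was lower by 1.37 ± 0.18 (adjusted p = 0.000172) and Ccng2 by 1.42 ± 0.19 (adjusted p = 0.000186), and Cdkn1a had a difference of 0.23 (adjusted p = 0.609).

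Promoters of genes from these groups are shown because they carry the short motifs for which such genes are known. E2F factors bind motifs such as TTTGGCGC, TTTCGCGC and TTTCCCGC at replication genes, the letters TTTGAA are the cell cycle homology region (CHR) of mitotic genes, and TGACNNNGC is the core of the antioxidant element that NRF2 binds. Each was searched on both strands from 250 bases before to 50 after the RefSeq start (GRCm38.p6) that is listed first for a gene, and the pair of E2F matches in the Mcm5 promoter overlap. An E2F motif was found for 12 of 35 DNA replication genes with a promoter (34.3%) and 2.63% of 15691 promoters of all genes tested. The CHR letters were found for 25 of 33 mitosis genes (75.8%) against 15.8%, and CCAAT, the box often paired with them, for 24 of 33 (72.7%) against 38.8%. The antioxidant core was found for 5 of 13 NRF2 genes (38.5%) against 13.3%. A match is a description of the letters and not a site in use. The 3 promoters below are from named members with a match, which is in capitals.
Mcm5 promoter, E2F motif, chr8:75109259-75109558, plus strand: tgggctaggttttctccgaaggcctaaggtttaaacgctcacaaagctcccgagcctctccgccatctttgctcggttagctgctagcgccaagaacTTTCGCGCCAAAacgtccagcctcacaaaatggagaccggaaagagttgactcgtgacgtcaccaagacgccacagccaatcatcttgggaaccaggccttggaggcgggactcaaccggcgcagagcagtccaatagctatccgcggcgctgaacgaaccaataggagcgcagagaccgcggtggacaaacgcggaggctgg
Prc1 promoter, CHR motif, chr7:80294201-80294500, plus strand: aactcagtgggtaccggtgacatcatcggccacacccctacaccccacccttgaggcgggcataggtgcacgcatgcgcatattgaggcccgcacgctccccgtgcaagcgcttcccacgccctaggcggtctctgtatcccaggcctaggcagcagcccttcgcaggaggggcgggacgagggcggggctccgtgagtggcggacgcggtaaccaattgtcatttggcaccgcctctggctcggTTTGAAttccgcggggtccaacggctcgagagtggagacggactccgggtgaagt
Gsta3 promoter, antioxidant element motif, chr1:21240335-21240634, plus strand: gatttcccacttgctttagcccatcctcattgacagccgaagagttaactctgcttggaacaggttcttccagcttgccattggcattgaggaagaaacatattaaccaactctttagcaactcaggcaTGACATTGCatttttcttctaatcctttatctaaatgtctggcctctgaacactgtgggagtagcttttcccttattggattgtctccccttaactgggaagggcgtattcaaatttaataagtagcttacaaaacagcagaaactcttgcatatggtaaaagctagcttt

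Myc and the genes that make ribosomes were also higher. Of 26 measured genes, 21 (80.8%) were higher, 1 was lower and the median difference was 1.5. Myc, the transcription factor behind growth programmes, was at 8.64 and 7.85 in number 1, 12.07 and 11.68 in number 4, and 13.64 to 13.99 in numbers 5 and 6 (3.48 ± 0.66, adjusted p = 0.00211). Nolc1 and Dkc1, factors of the nucleolus, were higher by 2.56 ± 0.25 and 3.07 ± 0.33 (adjusted p = 2.06e-05 and 4.33e-05), and Nop16 by 1.74 ± 0.18. Npm1, a histone chaperone of the nucleolus, was lower by 0.64 (adjusted p = 0.0394). The mean of the list was 9.93 to 10.60 in numbers 1 to 4 and 11.77 to 11.92 in numbers 5 and 6. The means of numbers 2, 3 and 4 were 10.51, 10.52 and 10.56.

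Antioxidant genes under NRF2, the transcription factor that responds to oxidants and electrophiles, were also higher, in 13 of 16 (81.2%) with none lower and a median of 1.81. Gclc, the catalytic subunit of the enzyme that starts glutathione synthesis, was at 11.43 and 11.98 in number 1, 9.93 to 10.48 in numbers 2 to 4 and 14.23, 14.37, 13.83 and 13.59 in Ctrl 5, Ctrl 6, HMB 5 and HMB 6 (3.44 ± 0.37, adjusted p = 4.54e-05). Nqo1, a quinone reductase, was higher by 2.86 ± 0.31 (adjusted p = 4.26e-05), Gsta3, a glutathione transferase, by 4.80 ± 0.80 (adjusted p = 0.000904) and Hmox1, which degrades haem, by 1.79. Here the spread ran the other way from that of the cell cycle. Number 1, not number 4, was the nearest to numbers 5 and 6, with list means of 13.42 and 13.83 against 12.18 and 12.20 in number 4 and 14.38 to 15.09 in numbers 5 and 6. Nfe2l2, the gene of NRF2 itself, had a difference of -0.26 and did not pass.

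Slc7a11, the cystine importer that NRF2 and ATF4 both control, is in this list and in that of the amino acid response. It was at 15.01 and 14.58 in Ctrl 5 and Ctrl 6, 11.51 and 10.71 in HMB 5 and HMB 6, and 7.06 to 10.95 in numbers 1 to 4, where HMB 1 overlapped with HMB 6 (4.48 ± 0.82, adjusted p = 0.00161). Of 26 genes of the ATF4 amino acid response, 9 (34.6%) were higher and 3 (11.5%) lower. Within Ctrl, 11 were higher and 2 lower, where 4.77% of all probe sets were higher and 2.94% lower. Within HMB, 3 were higher and 5 lower, where 4.8% of all were higher and 3.77% lower. The direct test of HMB by state over arrays, given below, called no probe set. The mean of the list was 11.53 and 11.60 in Ctrl 5 and Ctrl 6, but 10.47 and 10.46 in HMB 5 and HMB 6, inside the range of numbers 1 to 4 (10.12 to 10.68). The higher ones were enzymes and carriers, among them Psat1 of serine synthesis (3.52 ± 0.33, adjusted p = 1.84e-05), Shmt2 of the mitochondrial folate cycle (2.17 ± 0.30, adjusted p = 0.00023) and the leucine carrier Slc7a5 (2.09). The lower ones were the stress regulators Nupr1 (-2.06 ± 0.30, adjusted p = 0.000396), Ddit3 (-2.12) and Atf3 (-1.28). Of 17 genes of the unfolded protein response, none was higher, and Herpud1 (-1.20) and Dnajb9 (-1.01) were lower.

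**Figure D3:**
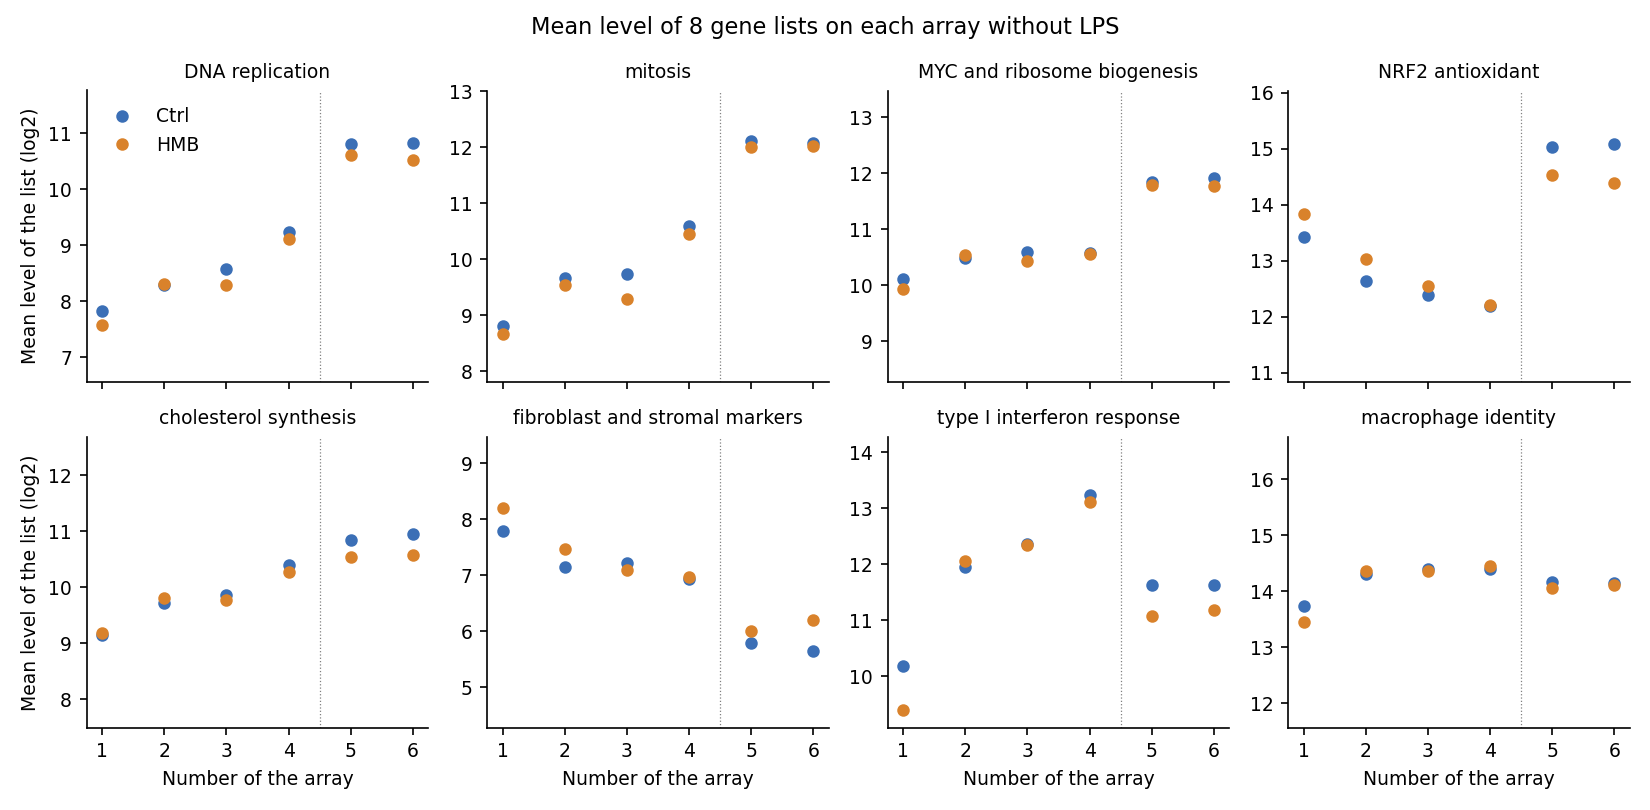
Mean level (log2) of 8 gene lists by replicate number, with a point per array in Ctrl and HMB and an equal span on every vertical axis. The replication and mitosis lists rank number 1 lowest and number 4 nearest to numbers 5 and 6, the NRF2 list has number 4 lowest (12.18 and 12.20), and the interferon list is highest in number 4 (13.23 and 13.11).

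Sterol and lipid genes differed in both directions. Of 19 cholesterol synthesis genes, 8 (42.1%) were higher and 1 was lower, with a median of 0.81. Sqle, the squalene epoxidase, was higher by 3.31 ± 0.52 (adjusted p = 0.000614), Hsd17b7 by 2.73 ± 0.47 (adjusted p = 0.0011) and Lss by 1.09 ± 0.17 (adjusted p = 0.000574), while Pmvk was lower by 0.97. Genes that the oxysterol receptor LXR controls included some of the largest falls. Pltp, the phospholipid transfer protein, was at 15.09 to 16.69 in numbers 1 to 4 (median 16.17) and 10.71, 11.70, 12.19 and 12.27 in Ctrl 5, Ctrl 6, HMB 5 and HMB 6 (-4.35 ± 0.32, adjusted p = 2.42e-06). Abca1, the cholesterol exporter, was at 14.03 to 14.96 (median 14.45) and 10.77, 10.49, 11.63 and 11.59 (-3.36 ± 0.25, adjusted p = 3.75e-06), and neither gene overlapped between the states.

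Scd1, a fatty acid desaturase under the same receptor, was lower by 4.10 ± 0.35 (adjusted p = 9.89e-06). By contrast Elovl6 (3.16), Fasn (1.58), Me1 (2.74 ± 0.23, adjusted p = 8.44e-06) and the gene of the receptor LXR alpha, Nr1h3 (1.84), were higher, so that this list held 4 higher and 5 lower of 18. Apoe had a difference of 0.10 and Abcg1 of -1.12, and neither passed. Pparg, the nuclear receptor for fatty acids, was lower by 1.61 ± 0.21 (adjusted p = 0.000145), and Cd36, a lipid scavenger receptor that it controls, was higher by 2.05 ± 0.22 (adjusted p = 4.26e-05). Of the 19 genes of lipid uptake and storage, 5 were higher and 2 lower.

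The genes that define a macrophage differed little. Csf1r, the receptor for macrophage colony-stimulating factor, was at 16.26 to 17.19 in numbers 1 to 4 (median 16.90) and 16.45 to 16.79 in numbers 5 and 6 (-0.20 ± 0.20, adjusted p = 0.573). Adgre1, the classic macrophage surface marker, was at 15.22 to 16.33 and 15.82 to 16.20 (-0.02 ± 0.23, adjusted p = 0.968), Itgam at 14.86 to 16.43 and 16.08 to 16.23 (0.13 ± 0.28) and Lyz2 at 18.15 to 18.73 and 18.55 to 18.83 (0.17 ± 0.17), and the states overlapped in all of these genes. Over the 20 identity genes, 1 (5%) was higher, Cebpa by 1.12 ± 0.27 (adjusted p = 0.00972, 0.0699 with numbers averaged), and 1 (5%) was lower, Mertk, a receptor for dying cells, by 0.85 ± 0.21 (adjusted p = 0.00999). Without HMB 5, Mertk no longer passed (-0.69). Csf1r, Adgre1, Itgam and Lyz2, which mark the labelled cell type, were thus at high levels in both states.

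Other receptors differed between the states. Of 19 C-type lectin receptors, 8 (42.1%) were lower, among them Clec2d (-3.54 ± 0.29, adjusted p = 7.88e-06), Clec4a1 (-3.24 ± 0.31, adjusted p = 2.08e-05) and Clec4a3 (-2.58 ± 0.21, adjusted p = 6.11e-06), and 2 were higher, Clec5a (2.71) and Clec4n (2.11 ± 0.52). Clec4n was high only in Ctrl 5 and Ctrl 6 (15.47 and 15.48). Its levels in HMB 5 and HMB 6 (12.61 and 12.37) lay within the range of numbers 1 to 4. Of 23 scavenger and efferocytosis receptors and partners, 8 (34.8%) were higher and 3 (13%) lower. Marco, a scavenger receptor for bacteria, was at 3.18 to 5.34 in numbers 1 to 4 (median 4.17) and 7.16 to 8.68 in numbers 5 and 6 (3.92 ± 0.36, adjusted p = 1.59e-05), without overlap. Cd5l, a secreted protein of tissue macrophages, was lower by 3.10 ± 0.35 (adjusted p = 6.72e-05), and Msr1 was higher by 1.98. Of 9 Fc receptor genes, 1 was lower, Fcgr4 by 1.76 ± 0.56 (adjusted p = 0.0394), and it no longer passed when any of 10 single arrays was left out, those other than Ctrl 1 and HMB 1.

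Antigen-presenting genes were lower in part. H2-Ab1, a chain of MHC class II, was at 10.30 to 11.55 in numbers 1 to 4 (median 10.81) and 8.41 to 9.61 in numbers 5 and 6 (-1.86 ± 0.24, adjusted p = 0.000174), H2-Eb1 was lower by 1.87 ± 0.20 (adjusted p = 3.74e-05), H2-Aa by 1.30, and the costimulator Cd86 by 2.01 ± 0.22 (adjusted p = 4.63e-05). The other 10 of the 14 genes, among them Ciita, Cd80 and Cd274, did not pass. Of 23 Toll-like receptor genes and co-receptors, Tlr2 was higher by 1.40, and 4 were lower, among them Tlr9, the receptor for unmethylated DNA (-2.12 ± 0.21, adjusted p = 2.81e-05) and the adaptor Ticam1 (-1.10 ± 0.16, adjusted p = 0.000311). Tlr4, the receptor for LPS, had a difference of 0.01, and its co-receptor Cd14 one of -0.95 ± 0.44 (adjusted p = 0.164).

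Inflammatory mediators went both ways, with no LPS present. Of 36 cytokine and chemokine genes, 8 (22.2%) were higher and 6 (16.7%) lower, and the median was -0.02. Tnf, a central inflammatory cytokine, was at 7.22 and 6.84 in number 1, 10.38 and 10.28 in number 4 and 12.85 to 13.17 in numbers 5 and 6 (4.02 ± 0.59, adjusted p = 0.000381). Cxcl14 was higher by 3.25 ± 0.28 (adjusted p = 9.46e-06), Ccl12 by 3.52 and Ptgs2, the inducible cyclooxygenase, by 3.04 ± 0.36 (adjusted p = 7.89e-05). Il1b was at 6.02 to 8.91 in numbers 1 to 4 and 4.29 to 5.90 in numbers 5 and 6 (-3.09, adjusted p = 0.00118), and Ccl6 (-1.95 ± 0.20) and Il18 (-1.41) were also lower. Il6 (-0.26), Il10 (0.09) and Il1a (-0.45) did not pass.

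The markers of polarized cells went both ways. Of 18 M1-like markers, 4 were higher (Tnf, Marco, Ptgs2 and Acod1, the enzyme that makes itaconate, by 3.59 ± 0.44) and 2 lower (Cd86 and Il1b), with a median of 0.37. Nos2, the inducible nitric oxide synthase, averaged 4.34 and 4.89 in numbers 1 to 4 and in 5 and 6 (0.55 ± 0.39, adjusted p = 0.389). Of 24 M2-like markers, 7 (29.2%) were lower and 3 (12.5%) higher. Mrc1, the mannose receptor, was at 11.96 to 13.83 in numbers 1 to 4 (median 13.26) and 10.77 to 12.39 in numbers 5 and 6 (-1.57 ± 0.27, adjusted p = 0.0012), with overlap, and the lectin Clec10a was lower by 2.54 ± 0.26 (adjusted p = 3.58e-05). Arg1, arginase, averaged 3.66 and 3.62 (adjusted p = 0.944), below the lower quartile of 5 arrays of numbers 1 to 4 and 1 of numbers 5 and 6. Of 19 NF-kB genes, 3 were higher, among them Sod2 (0.98 ± 0.19, adjusted p = 0.00206), and 4 lower, among them Traf1 (-2.13 ± 0.27, adjusted p = 0.000148) and Gadd45b (-2.22).

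Interferon-stimulated genes varied between numbers and little between the states. Their mean was 10.18 and 9.39 in number 1, 13.23 and 13.11 in number 4, and 11.07 to 11.63 in numbers 5 and 6, within the range of numbers 1 to 4. Of 29 genes, none was higher and 2 were lower, Ifi27l2a by 2.78 ± 0.27 (adjusted p = 2.42e-05) and Bst2 by 0.66 ± 0.20 (adjusted p = 0.0318, 0.12 with numbers averaged). Ifit3, an antiviral gene, spanned 9.37 to 15.52 in numbers 1 to 4, from HMB 1 to Ctrl 4, and was at 11.17 to 12.42 in numbers 5 and 6.

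Genes of TGF-beta and the extracellular matrix went both ways. Thbs1, a matrix protein that activates TGF-beta, was at 13.96 to 14.87 in numbers 1 to 4 (median 14.68) and 10.27 to 11.52 in numbers 5 and 6 (-3.56 ± 0.25, adjusted p = 1.87e-06), and fibronectin, Fn1, was lower by 3.26 ± 0.43 (adjusted p = 0.000198). Plau, the urokinase that activates plasmin, was higher by 3.25 ± 0.24 (adjusted p = 2.42e-06), and Mmp12, the macrophage elastase, by 1.25. Cemip, which degrades hyaluronan, was lower by 4.12 ± 0.39 (adjusted p = 2.06e-05). Of the 23 genes of this list, 6 (26.1%) were lower and 4 (17.4%) higher, the latter including Pmepa1 (3.13).

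Fibroblast and stromal markers moved with the state. Of 22 measured, 13 (59.1%) were lower, none was higher and the median was -1.44. Their mean level was 6.93 to 8.21 in numbers 1 to 4 and 5.65 to 6.21 in numbers 5 and 6, without overlap, and it was highest in number 1 (7.80 and 8.21). Col1a1, of collagen I, was at 9.49 to 11.23 (median 9.96) and 6.47, 7.48, 7.59 and 8.06 in Ctrl 5, Ctrl 6, HMB 5 and HMB 6 (-2.73 ± 0.34, adjusted p = 0.000125), Col1a2 was lower by 3.24 ± 0.31 (adjusted p = 2.19e-05) and Col3a1 by 3.71 ± 0.50 (adjusted p = 0.000225). Sparc, also made by macrophages, was lower by 2.45 ± 0.23 (adjusted p = 2.06e-05). The defining stromal genes Dcn and Lum were at 3.07 to 5.00 and 3.87 to 6.01 on all 12 arrays, below the mean of the negative controls, and did not pass. In bulk RNA fewer stromal cells and less RNA per cell cannot be told apart, and the part of such cells in the matrix genes above was not tested.

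Markers of other marrow cells had low means in most lists, with single members at high levels, such as Pf4, a platelet chemokine (medians 12.19 and 13.11), and Csf3r, the receptor for granulocyte colony-stimulating factor (11.60 and 10.20). Neutrophil and granulocyte precursor markers averaged 3.87 to 4.14 in numbers 1 to 4 and 4.29 to 4.48 in numbers 5 and 6. Of the 18, 3 were higher, Lcn2 (4.53 ± 0.41, adjusted p = 1.38e-05), Mmp8 (3.28 ± 0.26, adjusted p = 6.11e-06) and S100a8 (1.14 ± 0.18, adjusted p = 0.000528), and 2 were lower, while the defining granule genes Elane and Mpo stayed at 2.47 to 4.18 and 2.52 to 3.76. S100a8 ran from 3.61 to 5.1 over the 12 arrays, below the mean of the negative controls, so its difference may hold little signal. Lymphocyte markers averaged 4.05 to 4.25 and mast cell, basophil and eosinophil markers 3.72 to 4.37 over the 12 arrays, and none of the 17 and 14 genes passed. Dendritic cell markers averaged 6.33 to 6.66 and 6.13 to 6.22, and 3 of 19 were lower, Cd83 (-3.16 ± 0.21, adjusted p = 1.49e-06), Clec10a and Ccr7 (-0.70 ± 0.23, adjusted p = 0.0466, not passed when any of 10 single arrays was left out). Of 10 erythroid and megakaryocyte markers, Pf4 (1.08 ± 0.23) and Ppbp (1.00 ± 0.25) were higher, and the mean was 5.98 to 6.31 and 5.90 to 6.28. Ppbp, at 3.2 to 5.22, also lay below the mean of the negative controls on all 12 arrays.

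Progenitor and monocyte genes differed in single members. Cd34, a surface protein of progenitors, was at 8.21 and 7.31 in number 1, 11.55 and 11.64 in number 4 and 13.57 to 15.09 in numbers 5 and 6 (4.41 ± 0.72, adjusted p = 0.000754). Bex6 (3.46 ± 0.73, adjusted p = 0.0041), the homeobox gene Meis1 (1.39 ± 0.30, adjusted p = 0.00532) and Myb (1.45) were also higher, which made 4 of 11 stem and progenitor markers (36.4%). Myb ran from 3.17 to 6.41, within or below the range of the negative control means. Kit, the stem cell factor receptor that defines progenitors, averaged 3.22 and 3.78 (adjusted p = 0.144) and lay below the lower quartile of 7 of the 8 arrays of numbers 1 to 4. The mean of this list was 6.52 to 7.76 and 8.03 to 8.36.

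Of 19 monocyte markers, 5 (26.3%) were higher, Treml4, Cx3cr1, Itgal, Chil3 and Ly6c2, and 3 (15.8%) lower, Fn1, the haptoglobin gene Hp (-2.0 ± 0.34, adjusted p = 0.000947) and Nr4a1. Chil3 lay at 3.28 to 5.31, below the mean of the negative controls on all arrays. Ly6c2, of classical monocytes, averaged 4.88 and 6.11 (1.23 ± 0.39, adjusted p = 0.0379), and it did not pass without any of 8 single arrays, with 0.81 left without HMB 5. Its difference was 0.36 within Ctrl and 2.11 within HMB. Only its level in HMB 5 (7.41) lay above the mean of the negative controls of the array. Ccr2, the chemokine receptor of classical monocytes, had a difference of 0.10 ± 0.58 (adjusted p = 0.937), and Itgax, the integrin of dendritic cells and some macrophages, one of -0.18. The sign of both, and of Itgam and Arg1 above, changed under other settings. The mean of the list was 6.19 to 7.73 and 7.45 to 7.70, with overlap.

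**Figure D4:**
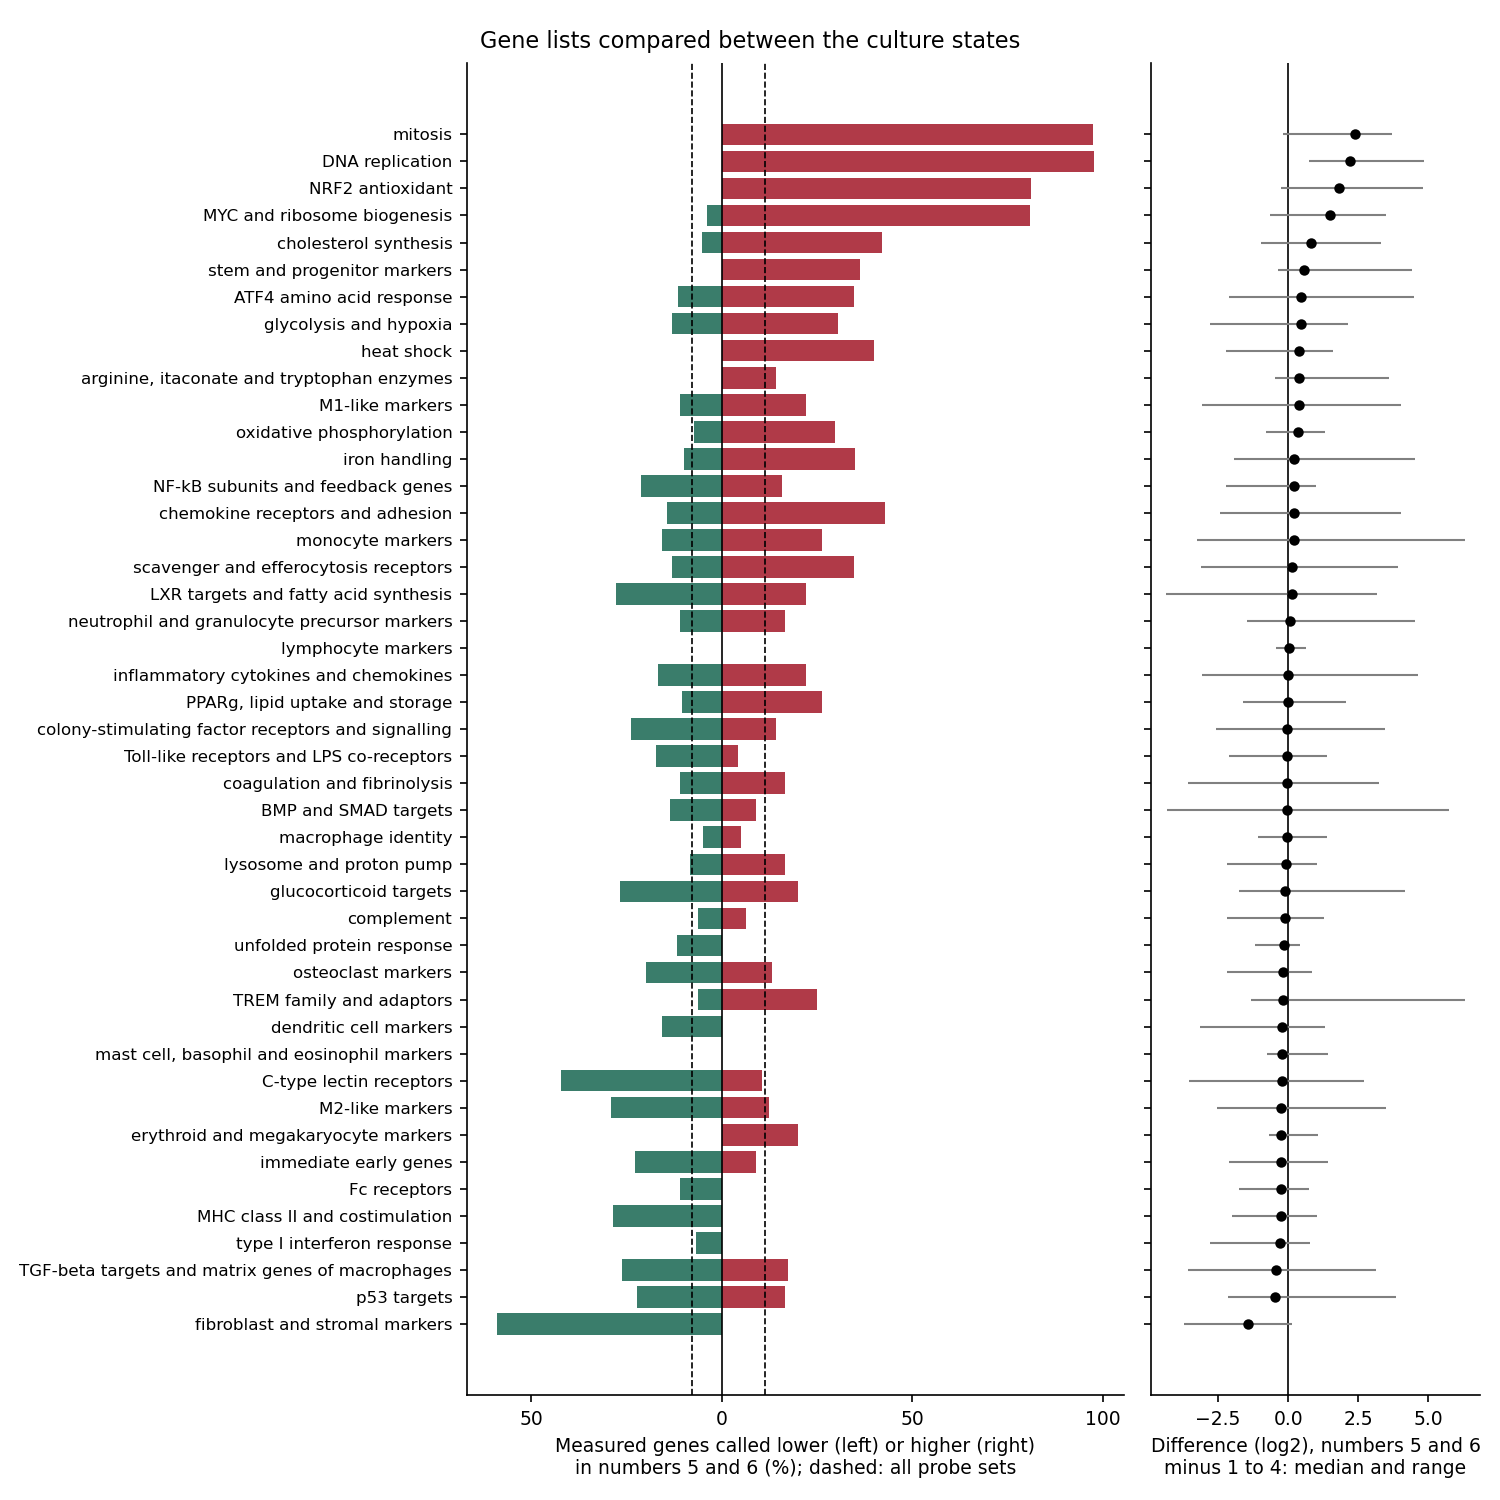
The 45 gene lists, ordered by median. Left, the percentage of each list's measured genes called higher (to the right) or lower (to the left) in numbers 5 and 6, with dashed lines at 11.3% and 7.95%, the shares over all probe sets. Right, the median (point) and range (line) of the log2 difference. Mitosis (97.4% higher) and fibroblast and stromal markers (59.1% lower) stand at the ends.

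Energy, iron and metal genes were higher in part. The energy lists were well expressed, with means of 12.81 to 13.65 for glycolysis and hypoxia and 12.46 to 13.07 for oxidative phosphorylation. Among the 5675 probe sets kept by the filter on dim ones, 2751 passed in either direction. The shares of these energy lists thus do not set them apart from other well-expressed genes. Of 23 genes of glycolysis and hypoxia, 7 (30.4%) were higher, among them the glucose carrier Slc2a1 (2.14) and Hk2 (1.37 ± 0.18, adjusted p = 0.000219), and 3 were lower, Vegfa (-2.80 ± 0.41, adjusted p = 0.000377), Egln3 (-2.03 ± 0.28, adjusted p = 0.00023) and Bnip3 (-0.70). Of 27 genes of oxidative phosphorylation, 8 (29.6%) were higher by at most 1.30 (Ndufa4) and 2 were lower. Of 20 iron genes, 7 (35%) were higher, with Lcn2, which binds iron carriers of bacteria, the transferrin receptor Tfrc (3.42) and the exporter Slc40a1 (1.57), and 2 were lower. Mt2, a metallothionein, was at 7.23 to 9.48 in numbers 1 to 4 (median 8.45) and 12.36 to 12.63 in numbers 5 and 6 (4.16 ± 0.35, adjusted p = 8.44e-06), and Mt1 was higher by 1.59 ± 0.19. Both are in the list of 15 glucocorticoid targets, in which 3 were higher and 4 lower, with Fkbp5 up by 1.83 ± 0.25 (adjusted p = 0.000223) and Tsc22d3 down by 1.74.

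Signalling genes downstream of growth factor receptors moved in single members as well. Of 21 genes of colony-stimulating factor receptors and signalling, 3 (14.3%) were higher and 5 (23.8%) lower. Etv5 (3.25) and Dusp6 (3.47), targets of the MAP kinase pathway, were higher. Spred1 (12.84 to 14.32 in numbers 1 to 4, 13.51 to 13.77 in 5 and 6) and Spry2 (8.61 to 9.47, 8.71 to 9.25) of this list overlapped between the states. The receptor chains Il3ra (-2.59 ± 0.24, adjusted p = 1.88e-05) and Csf2rb (-1.03) and the STAT target Cish (-1.41 ± 0.22, adjusted p = 0.000639) were lower. All levels of Cish, 2.76 to 5.25, lay below the mean of the negative controls. Of 22 immediate early genes, 2 were higher and 5 (22.7%) lower, among them Jund (-2.11 ± 0.24, adjusted p = 6.16e-05) and Ier5 (-1.41 ± 0.18, adjusted p = 0.000125). Of 18 p53 targets, 3 were higher, with Plk3 (3.86 ± 0.41, adjusted p = 3.95e-05), and 4 lower, with Pmaip1 (-2.13 ± 0.21, adjusted p = 2.86e-05). Of 10 heat shock genes, 4 (40%) were higher, among them Hsp90aa1 (1.59 ± 0.24, adjusted p = 0.000444). Hspa1a, the inducible chaperone, was at 13.47 in HMB 1, 10.06 in Ctrl 1 and 6.49 to 8.68 on the other 10 arrays.

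The remaining lists gave smaller counts. Of 21 chemokine receptor and adhesion genes, 9 (42.9%) were higher, with Cx3cr1 and the integrin chain Itgb2 (1.29, not passed without any of 6 single arrays) among them, and 3 were lower, among them Itgb7 (-2.42) and Cxcr4 (-1.08). Of 18 coagulation and fibrinolysis genes, 3 were higher, Plau, the protein C receptor Procr (2.75) and the urokinase receptor Plaur (1.26), and 2 were lower. Complement genes gave 1 higher and 1 lower of 16, the latter Serping1, the C1 inhibitor (-2.20). Lysosome and proton pump genes gave 4 higher and 2 lower of 24, osteoclast markers 2 higher and 3 lower of 15, and enzymes of arginine, itaconate and tryptophan 2 higher of 14, Acod1 and Spr. Of the 16 TREM genes and adaptors, 4 were higher and 1, Cd300a, was lower (-0.99).

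Some counts and calls above rested on counting the Ctrl and HMB arrays of a number separately. With these averaged, where 6.31% of all probe sets were higher and 4.01% lower, the count of chemokine receptor and adhesion genes called higher fell from 9 to 1 of 21, that of oxidative phosphorylation from 8 to 2 of 27, that of glycolysis and hypoxia from 7 to 2 of 23 and that of lipid uptake and storage from 5 to 1 of 19. Scavenger receptors called higher fell from 8 to 4 of 23, cholesterol synthesis genes from 8 to 5 of 19 and lysosome genes from 4 to 1 of 24, while fibroblast and stromal markers called lower fell from 13 to 8 of 22. Of 19 NF-kB genes, 1 was then higher and 1 lower. Single genes that did not pass included Pcna, Npm1, Ddit3, Dnajb9, Fasn, Msr1, Fcgr4, H2-Aa, Ccl12, Bst2, Ccr7, Nr4a1, Bnip3, Dusp6, Itgb2, Spr, Cebpa, Gadd45b and Plaur.

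Other genes among the 12 largest in either direction had varied roles. Gpr84, a receptor for medium-chain fatty acids, was higher by 5.57 ± 0.55 (adjusted p = 2.42e-05), Epha2, an ephrin receptor kinase, by 5.28 ± 0.53 (adjusted p = 2.87e-05), Tmem119, known as a microglial marker, by 4.65 ± 0.40 (adjusted p = 9.89e-06), AI506816 by 4.63 ± 0.45 and Fabp7, a fatty acid-binding protein, by 4.61 ± 0.44. Clic5, of the chloride intracellular channel family, was lower by 4.72 ± 0.50 (adjusted p = 3.99e-05), Aebp1, which binds collagen, by 4.3 ± 0.44 (adjusted p = 3.49e-05), Dbp, an output factor of the circadian clock, by 3.98 ± 0.46 (adjusted p = 7.6e-05) and the orphan receptor Gpr162 by 3.66 ± 0.36 (adjusted p = 2.74e-05). Each of these genes was also past the threshold with the arrays of a number averaged, at adjusted p of 0.0087 or below.

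The state difference was present in Ctrl and in HMB arrays. Within Ctrl, 1711 probe sets passed, 4.77% of all higher (1059) and 2.94% lower (652). Within HMB, 1904 passed, 4.8% higher (1066) and 3.77% lower (838). In the same direction 1049 passed in both, which was 61.3% of the Ctrl calls and 55.1% of the HMB calls, and 3 passed in opposite directions. Without Ctrl 5 or Ctrl 6 the Ctrl count was 232 or 257, without Ctrl 2 1019, and without HMB 5, HMB 6 or HMB 3 the HMB count was 215, 240 or 1160. Over all probe sets the Ctrl and HMB differences had a correlation of 0.747, a description over probe sets measured on arrays with the same replicate numbers.

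For Treml4 the difference was 6.18 ± 0.40 in Ctrl and 6.41 ± 0.40 in HMB, and for Bmpr1a -3.98 ± 0.25 and -4.70 ± 0.25. The DNA replication list had 34 and 33 of 43 genes higher in Ctrl and HMB, with medians of 2.34 and 2.18. The NRF2 list had 11 of 16 in Ctrl and 5 in HMB, with medians of 2.0 and 1.5. The fibroblast and stromal list had 8 of 22 lower in each.

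**Figure D5:**
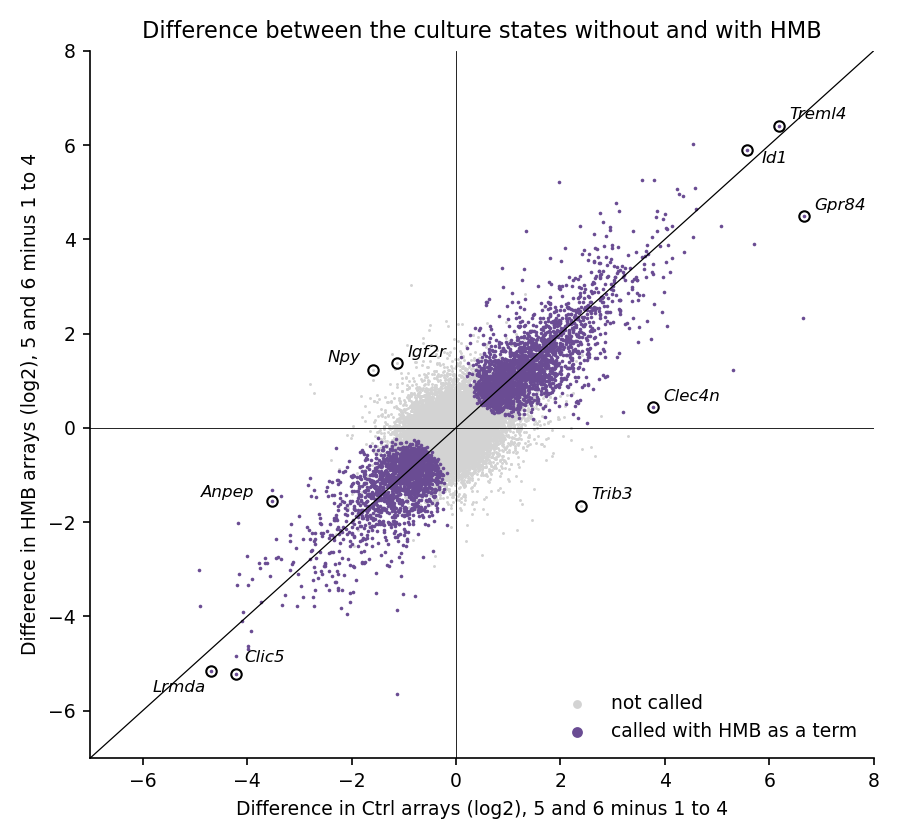
Difference between the states (log2, numbers 5 and 6 minus 1 to 4) in the Ctrl arrays (horizontal) and in the HMB arrays (vertical), with a point per probe set and the line of equal differences. Purple points passed the threshold with HMB as a term. Treml4 lies near the line at 6.18 and 6.41, and Trib3 off it at 2.39 and -1.65.

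Whether HMB altered the state difference was tested directly. No probe set passed (0 of 22206, 0% called by limma, smallest adjusted p = 0.273), and 1025 had an unadjusted p under 0.05. With the replicate number as a fixed block 4 passed, and without HMB 4 1 did, Trib3. The 4 genes, named after their values were seen, were Slc7a11, Clec4n, the cytochrome oxidase subunit Cox6a2 and the prostaglandin receptor Ptger2 (adjusted p = 0.0425 each). Clec4n, which encodes dectin-2, was at 15.47 and 15.48 in Ctrl 5 and Ctrl 6, 12.61 and 12.37 in HMB 5 and HMB 6, and 11.17 to 12.86 in numbers 1 to 4 with or without HMB. Trib3, a pseudokinase induced by ATF4, was at 12.20 and 12.55 in Ctrl 5 and Ctrl 6, 8.71 and 9.08 in HMB 5 and HMB 6, and 9.37 to 11.03 in numbers 1 to 4. In both genes only the Ctrl arrays of numbers 5 and 6 were high.

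Igf2r, which carries lysosomal enzymes, had the opposite order, at 11.96 and 11.79 in Ctrl 5 and Ctrl 6, 13.95 and 14.22 in HMB 5 and HMB 6, and 12.45 to 13.33 in numbers 1 to 4. Anpep, aminopeptidase N, was at 17.25 to 17.59 in all 8 arrays of numbers 1 to 4, 13.97 and 13.91 in Ctrl 5 and Ctrl 6 and 15.71 and 15.99 in HMB 5 and HMB 6. Npy, neuropeptide Y, was at 11.82 and 12.56, then 15.24 and 15.34, with 13.32 to 14.60 in numbers 1 to 4. The interaction for these genes did not pass over arrays (adjusted p = 0.273 for Igf2r and Anpep and 0.357 for Npy).

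The same replicate numbers also occur in the 10 arrays with LPS, which the comparison above did not use. There, numbers 5 and 6 minus numbers 2 to 4 gave no probe set past the threshold (0%, limma with HMB as a term, smallest adjusted p = 0.704), with 1403 at an unadjusted p under 0.05. A plain per-gene test, run as an alternative, also gave 0 after adjustment and 1403 before. Of the 4271 probe sets called without LPS, 3383 had the same sign. The levels show that the arrays with LPS did not divide by number in the same way. Treml4 was at 10.18 and 10.45 in HMB+LPS 5 and HMB+LPS 6, 9.35 in LPS 6 and 8.90 in LPS 3, but at 3.44 in LPS 5 and 3.14 to 5.36 on the other 5 arrays. Bmpr1a was at 5.63, 4.62, 5.27 and 6.16 in LPS 3, LPS 6, HMB+LPS 5 and HMB+LPS 6, and at 8.71 to 10.05 on the other 6, LPS 5 included.

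The DNA replication list followed the same arrays, with means of 10.53 and 10.43 in LPS 3 and LPS 6, 9.83 and 9.57 in HMB+LPS 5 and HMB+LPS 6, and 7.45 to 7.92 on the other 6. The array labelled LPS 3 thus resembled numbers 5 and 6 without LPS, and the array labelled LPS 5 resembled numbers 1 to 4. Why this was so was not tested. Leaving out either array alone gave no probe set past the threshold, but the other array then stayed in its labelled group. These fits therefore cannot show what the comparison gives without both arrays.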

How the data were processed

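The authors deposited log2 values of 28846 probe sets on Clariom S arrays, 1 array per sample. For background correction and normalization, the sources used here name no method, and the table holds no detection calls. Leaving out 6640 control probe sets left 22206, of which 19572 had 1 gene symbol in the platform annotation and 2634 were unnamed. The deposited log2 values were fitted without further scaling in limma 3.58.1 (R 4.3.3), with terms for state and HMB, and adjusted over all probe sets (Benjamini-Hochberg, threshold 0.05). A self-test on simulated data with known changes was run first.

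Members and lists were chosen with earlier results of these data known. The 45 lists held 908 genes, of which 831 were matched. Genes were named by a rule: the 12 largest differences in each direction, up to 3 called members with the smallest adjusted p from each list, the 5 genes with the smallest p for HMB by state, and 18 macrophage and other-cell markers, of which Cd68 and Ly6g were not matched. Genes outside the rule are given as list members or were chosen after their values were seen.

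Alternatives were a replicate block, averages per number, other normalizations, weights, filters, tests and arrays left out. The labels do not state that numbers pair samples. Deviations of Ctrl and HMB arrays of a number correlated at 0.183 to 0.627 within group, which includes the state itself, and at 0.00359 to 0.507 within state and group. Promoters are RefSeq sequences of GRCm38.p6.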

Additional observations from a re-analysis of the deposited data

Results flagged for a closer look

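Of 82 groups of values tested for an array far from the others, 2 held one. Chance alone flags about 1 in 20 such groups. In numbers 5 and 6, Mybl2 was at 10.00 in HMB 6 and at 10.42 to 10.50 on the other 3 arrays. In numbers 1 to 4, Mrc1 was at 11.96 in HMB 1 and at 12.97 to 13.83 on the other 7 arrays.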

How the results depend on the processing

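The number of probe sets called between the states (4271) moved most with how numbers 5 and 6 were counted. It was 2291 with the arrays of a number averaged, 58 with numbers 5 and 6 averaged to 1 sample and 2578 against number 4 alone (both chosen after seeing the data), and 1559 to 4866 with arrays left out, the lowest without both arrays of number 6 and 1573 without both of number 5. It was 2751 among the 5675 probe sets kept by a filter on dim ones, 2601 with a difference of at least 1 and 6792 by the methods' t-test without adjustment. Quantile normalization gave 4414, with 2287 higher and 2127 lower. The fit with the replicate number as a replicate block gave 3610 calls (correlation 0.174) and kept 130 of 133 called named genes.

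Within Ctrl the count was 232 to 2103 with an array left out (232 without Ctrl 5, 257 without Ctrl 6, 1019 without Ctrl 2). Within HMB it was 897 when fitted alone and 215 to 1974 with an array left out (215 without HMB 5, 240 without HMB 6, 1160 without HMB 3). HMB by state had 4 calls with the replicate block and 0 to 1 with an array left out, the 1 without HMB 4. The state difference with LPS had 0 throughout.

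Of the 133 called named genes, none reversed under any alternative, 120 remained with averages, 108 without both arrays of 5 or of 6, 25 with 5 and 6 averaged to 1 sample and 113 against number 4. Only 8 uncalled genes changed sign. Against number 4 the difference was -0.17 for Igf2r, 0.10 for Npy, -0.28 for Itgam, -0.35 for Ccr2, 0.94 for Itgax and 0.42 for Arg1. Quantile normalization gave -0.12 for Ccr2 and 0.06 for Arg1, and array weights -0.03 for Itgam and -0.31 for Ccr2. With single arrays left out, the difference ran from -0.24 to 0.46 for Igf2r, -0.20 to 0.94 for Trib3, -0.55 to 0.31 for Npy, -0.15 to 0.04 for Adgre1, -0.04 to 0.21 for Itgam, -0.30 to 0.25 for Ccr2 and -0.14 to 0.10 for Arg1. With both arrays of a number left out, it ran from -0.39 to 0.03 for Npy, -0.20 to 0.07 for Adgre1, -0.15 to 0.27 for Itgam, -0.57 to 0.40 for Ccr2 and -0.21 to 0.14 for Arg1. Within these, Adgre1 was at 0.01 without number 6 and Arg1 at 0.09 without number 2. Without the arrays of control separation under 4, it was -0.15 for Itgam and -0.57 for Ccr2. The cause was not tested. Signal near the negative controls limits the low levels.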

Other observations

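Genes of the circadian clock were looked at after the fall of Dbp was seen, and are given as values. Npas2, a partner of the core clock factors, was lower in numbers 5 and 6 by 2.57 ± 0.23 (limma, adjusted p = 1.35e-05), at 9.83 to 10.89 in numbers 1 to 4 and 7.45 to 8.06 in numbers 5 and 6. The repressor Nfil3 was lower by 2.23 (adjusted p = 0.00123), Per3 by 1.85 (adjusted p = 0.00197) and Nr1d2 by 0.99 (adjusted p = 0.0082). Arntl was higher by 0.63 (adjusted p = 0.0178) and Bhlhe40 by 1.70 (adjusted p = 0.00621). With the arrays of a number averaged, Npas2, Nfil3 and Per3 passed and Nr1d2, Arntl and Bhlhe40 did not. Clock (0.08), Per1 (-0.38), Per2 (0.12), Cry1 (0.46), Cry2 (-0.17), Nr1d1 (-0.61) and Tef (-0.57) did not pass. The labels used here give no time of day for the harvest, and its part in these values was not tested.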
